A study of Mus musculus with 6 samples.

Results

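The genes described here encode proteins of the blood plasma that the embryonic liver and the yolk sac make, with a few genes of their uptake and regulation. They were measured in the trunk of mouse embryos at embryonic day 9.5 (E9.5), in Arid3b-null and wild-type embryos. The product of Arid3b binds AT-rich DNA through an ARID domain and regulates transcription. The list holds 36 genes, chosen by symbol or RefSeq accession with the difference between Arid3b-null and wild type already known. Of these, 34 had at least 1 probe on the array, with 43 probes in all, and 30 could be tested among 19792 genes. No probe was matched to Apoc2 or Serpina1b. Because the same difference guided the choice, the values below describe these genes and are no evidence that they were affected more than others.

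The Arid3b-null group had 3 arrays, and the wild-type group had 3 arrays. Each array held RNA of 4 embryos pooled, taken from the trunk and forelimb buds, with the otic vesicle as the front limit and somite 15 as the hind limit. The labels give the mutants as Arid3b-null without allele or strain, and name neither the liver bud nor the yolk sac as part of the piece or as removed. The spread within a group is thus one of pools, not of embryos. In a mixed piece of tissue, fewer cells of a type and less RNA per cell cannot be told apart.

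At this stage the liver bud grows out of the foregut endoderm, and its hepatoblasts move into the mesenchyme of the septum transversum. They start to express albumin, alpha-fetoprotein, transthyretin and other secreted proteins. The visceral endoderm of the yolk sac makes many of the same proteins earlier and in parallel, so most of these genes do not separate the 2 sources. Factors of the HNF4, FOXA and C/EBP families bind their promoters and enhancers, and HNF4 factors in particular control apolipoprotein and clotting factor genes.

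The promoters that follow are shown for the neighbours Alb and Afp, both lower in Arid3b-null trunks, and for Rbp4, Apob, Apoe and Prox1. The latter carry the letters TATAAA, the core of the TATA box, on one strand or the other before the start of transcription. RefSeq promoter windows (GRCm38.p6, from 250 bases before to 50 after the start) were found for 30 of the 36 genes, 36 windows in all. Those letters, on either strand, were in 8 of the 36 windows (22.2%) and in 13.6% of all 32851 windows in the table. Matches were counted at any position in the window, so these are not shares of promoters with a working TATA box. The 8 genes were Afp, Apoa2, Apob, Apoe, Itih3, Prox1, Rbp4 and Vtn, of which Afp, Rbp4, Apob, Apoe and Prox1 had a match within the last 120 bases before the start. These bases are given 5′ to 3′ on the strand of the gene, with each match in capitals (TTTATA where it lies on the other strand).
Alb (albumin), chr5:90460750-90460869, plus strand, no match: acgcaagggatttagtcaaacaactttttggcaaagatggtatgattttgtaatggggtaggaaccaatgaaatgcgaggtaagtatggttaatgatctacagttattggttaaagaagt
Afp (alpha-fetoprotein), chr5:90490594-90490713, plus strand, match 7 bases before the start: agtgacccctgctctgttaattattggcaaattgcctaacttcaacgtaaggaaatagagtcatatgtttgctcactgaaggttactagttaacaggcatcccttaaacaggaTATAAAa
Rbp4 (retinol-binding protein), chr19:38124812-38124931, minus strand, downstream of 2 starts, match 28 bases before the start: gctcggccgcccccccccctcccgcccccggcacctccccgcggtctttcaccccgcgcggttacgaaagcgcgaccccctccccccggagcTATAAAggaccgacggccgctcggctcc
Apob (apolipoprotein B), chr12:7977557-7977676, plus strand, match 60 bases before the start: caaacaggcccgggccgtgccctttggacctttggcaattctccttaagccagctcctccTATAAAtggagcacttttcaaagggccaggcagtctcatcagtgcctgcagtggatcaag
Apoe (apolipoprotein E), chr7:19698622-19698741, minus strand, the middle of 3 starts, overlapping matches on both strands 100 and 96 bases before the start: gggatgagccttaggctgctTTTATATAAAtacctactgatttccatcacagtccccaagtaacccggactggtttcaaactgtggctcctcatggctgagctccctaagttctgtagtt
Prox1 (a homeobox factor), chr1:190170828-190170947, minus strand, upstream of 2 starts, match on the other strand 34 bases before the start: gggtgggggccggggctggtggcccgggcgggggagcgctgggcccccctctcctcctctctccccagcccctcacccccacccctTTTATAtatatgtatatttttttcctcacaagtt

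Of these 6 genes, Alb, Afp and Prox1 were lower in Arid3b-null trunks, Apoe was higher, and Rbp4 and Apob were not called. An HNF4 motif spelled CAAAGTCCA was in 0 of the 36 windows and in 0.475% of all windows. This spelling is so rare that its absence here does not tell whether these promoters hold other HNF4 sites. Neither motif was searched with mismatches. A match describes the letters only, and binding was not measured here.

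Levels are log2 of the array signal relative to the 75th percentile of that array, and differences are Arid3b-null minus wild type. A level can be compared between arrays for 1 gene, but not between genes, because each probe has its own brightness. A gene was called where limma's adjusted p over all tested genes was under 0.05. The 75th percentile itself lay between 611 and 844 signal units. The arrays differed little in the share of probes well above background, 60.7% to 68.1%. Arid3b read 0.54, 0.65 and 0.46 in Arid3b-null trunks and 2.18, 2.57 and 1.97 in wild type. This left 31.0% of the wild-type signal by that probe, and its other 2 probes were lower by 3.23 and 1.90 on the log2 scale. The sources used here do not say where these probes lie relative to the deleted part. Replicate numbers match slides, each with 1 Arid3b-null and 1 wild-type array. All Arid3b-null arrays lay at the second position of the slide and all wild-type arrays at the first, so position and genotype cannot be told apart.

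Among the 30 tested genes, 16 were lower in Arid3b-null trunks, 1 was higher and 13 were not called. Of all genes tested, 26.5% were called, 12.9% lower and 13.6% higher. The median difference of the 30 genes was -0.78, against -0.04 for all genes. Within the 3 slides their median was -0.81, -0.54 and -0.95. There were 12 genes that were both called and at least 2-fold lower, as were 2.85% of all genes. There was no overlap between the groups' arrays for 21 of the 30 genes, as for 46.2% of all genes. Of the 30, 24 were well above background on all 6 arrays, and 6 were tested only through the wild-type arrays: Alb, Serpina6, Itih3, Spp2, Fga and Apob. A gene that enters through the group in which it is bright is bound to lean to a fall, so these counts are a description only.

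**Figure D1:**
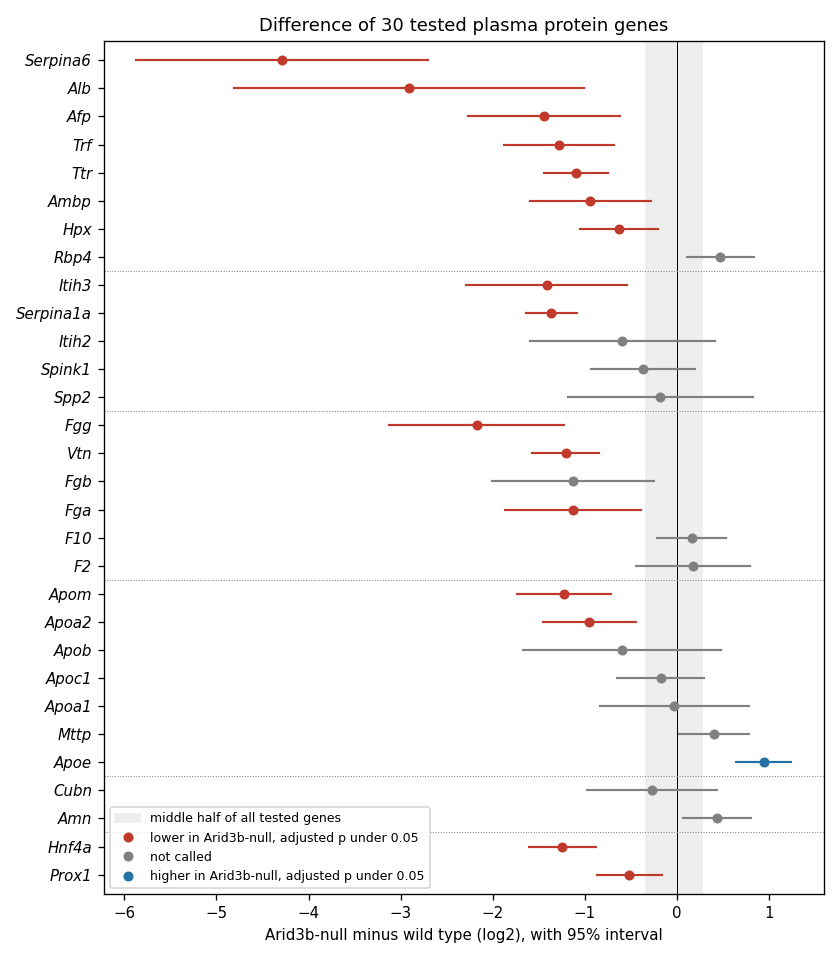
Difference between Arid3b-null and wild type (log2) for the 30 tested genes, ordered by role; points are the estimates, bars the 95% intervals of each gene before adjustment, and the grey band holds the middle of all tested genes, from -0.33 to 0.27. The 16 genes called lower lie between -4.29 and -0.52, and Apoe is the gene called higher at 0.94.

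Among carriers and transport proteins, 7 of 8 genes were lower in Arid3b-null trunks and none was called higher. This count and those of the other roles below stand beside 12.9% lower and 13.6% higher over all genes. Serpina6 encodes corticosteroid-binding globulin, the plasma carrier of glucocorticoids. Its level was -8.33, -5.48 and -6.85 in Arid3b-null trunks, against -2.65, -2.95 and -2.20 in wild type. All 3 wild-type pools were thus far above all 3 mutant pools, and the mutant pools spread widely. The difference was -4.29 ± 0.66 (SE, limma adjusted p = 0.00596), or 19.5-fold lower, and was -3.56 without Arid3b-null replicate 1 and -4.99 without Arid3b-null replicate 2. Only 1 of 3 Arid3b-null arrays was well above background, and the size moved with the background method. With normexp and the median background of each array it was -1.28, or 2.42-fold lower. A second, dimmer Serpina6 probe was well above background on no Arid3b-null array and on all wild-type arrays, which puts it at least 2.92-fold lower (adjusted p = 0.0024 among all probes).

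Alb, the main protein of adult plasma, read -8.25, -5.23 and -5.16 in Arid3b-null trunks and -3.21, -3.45 and -3.25 in wild type. The wild-type pools were nearly equal, while Arid3b-null replicate 1 stood about 3.02 below the next lowest mutant pool and was the array on which Alb was not well above background. The difference was -2.91 ± 0.80 (SE, adjusted p = 0.0381), or 7.51-fold lower. Without Arid3b-null replicate 1 it was -1.89 (adjusted p = 0.00305). It was not called without wild-type replicate 1, 2 or 3, with adjusted p of 0.0978, 0.083 and 0.0908 and differences from -2.98 to -2.86.

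Afp encodes alpha-fetoprotein, the fetal counterpart of albumin, and lies next to Alb with no protein-coding gene between them. Its level was 0.67, 2.14 and 1.45 in Arid3b-null trunks and 2.72, 2.88 and 2.99 in wild type. The groups did not overlap, and the order of the mutant pools had replicate 1 lowest again. The difference was -1.45 ± 0.35 (SE, adjusted p = 0.0247), or 36.7% of the wild-type level. It was not called without Arid3b-null replicate 3 (adjusted p = 0.0719) or without wild-type replicate 1, 2 or 3 (0.061, 0.0646 and 0.0695).

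Trf encodes transferrin, which carries iron. It read -0.98, 0.06 and -0.52 in Arid3b-null trunks and 0.82, 0.78 and 0.80 in wild type. Wild-type pools differed by 0.04 at most, and each mutant pool was below them. The difference was -1.28 ± 0.25 (SE, adjusted p = 0.0129), and a second Trf probe gave -1.31. Ttr, which encodes the thyroxine and retinol carrier transthyretin, read -1.74, -1.52 and -1.80 in Arid3b-null trunks and -0.81, -0.55 and -0.40 in wild type. Here the mutant pools were close together, with a difference of -1.10 ± 0.14 (SE, adjusted p = 0.00346).

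Ambp encodes the precursor of alpha-1-microglobulin and bikunin, and had levels of 0.33, 1.44 and 1.06 in Arid3b-null trunks and 1.83, 2.01 and 1.81 in wild type. Its difference was -0.94 ± 0.27 (SE, adjusted p = 0.0464). Hpx, for the heme carrier hemopexin, differed by -0.63 ± 0.18 (SE, adjusted p = 0.0422). Both calls sat near the threshold. Leaving out Arid3b-null replicate 3 or any wild-type array ended the Ambp call (adjusted p 0.0923 to 0.116), and leaving out any array but Arid3b-null replicate 2 ended that of Hpx (0.0754 to 0.115). Neither was called with median scaling (adjusted p = 0.0506 for Ambp and 0.0662 for Hpx) or quantile normalization (0.0555 and 0.0691), and Hpx was not called in the deposited value table (0.075) or with normexp and the median background of each array (0.116). Rbp4, the retinol-binding protein that travels with transthyretin, read 2.61, 2.45 and 2.09 in Arid3b-null trunks and 1.81, 1.95 and 1.97 in wild type. Its difference of 0.47 ± 0.15 (SE) was not called (adjusted p = 0.0637). It was called higher with quantile normalization (0.52, adjusted p = 0.0355), in the deposited value table (0.51, 0.0432), with normexp and the median background of each array (0.49, 0.0277), and without Arid3b-null replicate 3 (0.62, 0.0271).

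**Figure D2:**
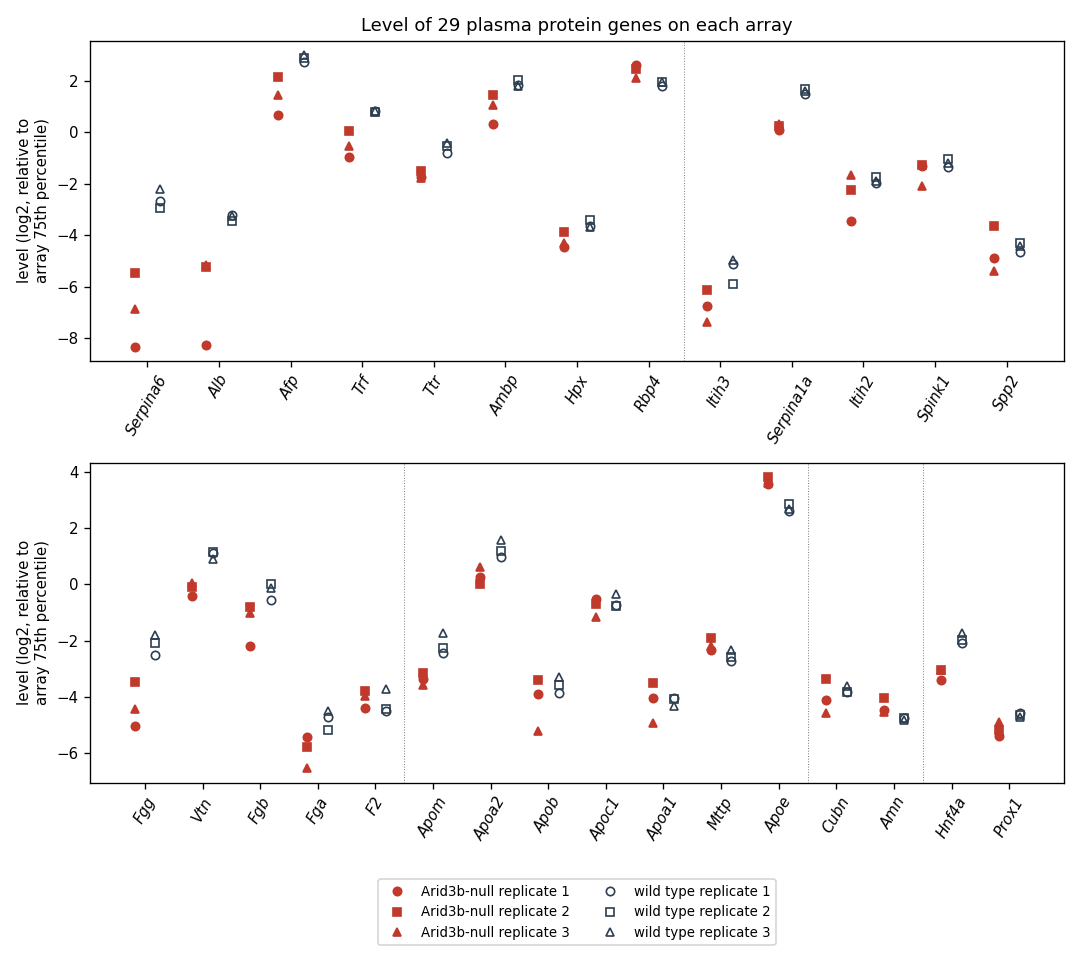
Level of 29 of the tested genes on each array (log2, relative to the array's 75th percentile), filled red for Arid3b-null and open for wild type, with the replicate given by the shape; F10, whose probe lies near 9, is left out. For Serpina6, Alb, Fgg and Afp the 3 mutant pools are spread over more than 1 unit and lie below all wild-type pools, while for Apoe they lie above.

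Of the protease inhibitors and proteins that bind matrix or mineral, 5 were tested and 2 were lower. Serpina1a encodes an alpha-1-antitrypsin, an inhibitor of neutrophil elastase, and read 0.09, 0.26 and 0.34 in Arid3b-null trunks and 1.49, 1.69 and 1.60 in wild type. Both groups were tight, and its difference of -1.36 ± 0.12 (SE) had the smallest adjusted p of the 30 genes, 0.000967. A second probe gave -1.27. The Serpina1 genes are near-identical copies, so the signal of a probe may come from more than 1 of them. Itih3, a heavy chain that bikunin is joined to, read -6.74, -6.12 and -7.36 in Arid3b-null trunks and -5.13, -5.89 and -4.96 in wild type. It differed by -1.41 ± 0.37 (SE, adjusted p = 0.0321). Only 1 of 3 Arid3b-null arrays was well above background, and the adjusted p was 0.0675 with the slide as a replicate block. Itih3 was not called without Arid3b-null replicate 1 or 3 or wild-type replicate 1 or 3 (adjusted p 0.0759 to 0.0957).

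The other 3 genes of this group were not called, and their arrays overlapped between the groups. Itih2, another such heavy chain, read -3.45, -2.26 and -1.67 in Arid3b-null trunks and -1.99, -1.73 and -1.89 in wild type. The mutant values thus ranged from well below to just above those of wild type, with a difference of -0.59 (95% interval -1.59 to 0.41, adjusted p = 0.34). Spink1, which encodes a trypsin inhibitor, differed by -0.37 (-0.93 to 0.20, adjusted p = 0.294). Spp2, which encodes a secreted phosphoprotein related to cystatins, differed by -0.18 (-1.18 to 0.83, adjusted p = 0.785). These intervals include both a 1.5-fold fall and no difference.

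Fibrinogen, the precursor of the clot, is built of 3 chains from Fgg, Fga and Fgb, which lie side by side on chromosome 3 with no protein-coding gene between neighbours. Fgg, the gamma chain, read -5.04, -3.48 and -4.43 in Arid3b-null trunks and -2.53, -2.10 and -1.79 in wild type. Its difference was -2.18 ± 0.40 (SE, adjusted p = 0.0103), or 4.51-fold lower. The mutant pools again had replicate 1 lowest and replicate 2 highest. Fga, the alpha chain, read -5.45, -5.80 and -6.56 in Arid3b-null trunks and -4.72, -5.20 and -4.52 in wild type, a difference of -1.12 ± 0.31 (SE, adjusted p = 0.0388). It was well above background on 2 of 3 Arid3b-null arrays. Fga was not called with the replicate block (adjusted p = 0.0572), nor without Arid3b-null replicate 2 or 3 or wild-type replicate 1 or 3 (0.0719 to 0.106).

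Fgb, the beta chain, read -2.20, -0.82 and -1.01 in Arid3b-null trunks and -0.54, 0.01 and -0.11 in wild type. Its groups did not overlap and its difference was -1.13 ± 0.37 (SE), but the adjusted p was 0.0649. With the slide as a replicate block the adjusted p of Fgb was 0.0218. All 3 chains had negative differences within each of the 3 slides. On slides 1, 2 and 3 these were -2.51, -1.38 and -2.64 for Fgg, -0.73, -0.61 and -2.04 for Fga, and -1.66, -0.83 and -0.90 for Fgb.

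Vtn encodes vitronectin, a plasma and matrix protein that binds cell adhesion receptors and the clotting regulator PAI-1. It read -0.41, -0.10 and 0.06 in Arid3b-null trunks and 1.12, 1.15 and 0.91 in wild type. Its difference of -1.21 ± 0.15 (SE, adjusted p = 0.00304) was of a size with that of Serpina1a. F2, for prothrombin, was not called, with 0.18 (95% interval -0.45 to 0.80, adjusted p = 0.655).

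F10, for clotting factor X, had 2 probes that did not move together. Its brighter probe read 9.32, 9.31 and 9.03 in Arid3b-null trunks and 8.79, 9.25 and 9.13 in wild type, and differed by 0.16 (-0.21 to 0.54, adjusted p = 0.488). Only 7 probes on the array were brighter, with signals of 343500 to 398600 units for that F10 probe. The dimmer probe read -2.55, -2.39 and -2.32 in Arid3b-null trunks and -1.99, -1.91 and -1.82 in wild type, with no overlap, and differed by -0.51 ± 0.11 (SE, adjusted p = 0.0198 among all probes). In wild type the brighter probe stood 10.97 above the dimmer one, and which of the 2 reads F10 could not be settled. The rule for representing a gene took the brighter one, by which F10 counts as not called. With the dimmer probe, 17 genes rather than 16 were lower.

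Of 7 tested apolipoproteins and genes of lipoprotein assembly, 2 were lower, 1 was higher and 4 were not called. Over all genes, 12.9% were lower and 13.6% higher. Apoe encodes the ligand of lipoproteins for their receptors and is made in many tissues beside the liver. It read 3.59, 3.83 and 3.60 in Arid3b-null trunks and 2.63, 2.88 and 2.68 in wild type. Apoe was the only one of the 30 genes called higher, at 0.94 ± 0.12 (SE, adjusted p = 0.00353), or 1.92-fold. Its difference was nearly the same on each slide, 0.96, 0.95 and 0.92. Its neighbour Apoc1, with no protein-coding gene between them, encodes an apolipoprotein that slows the clearance of lipoproteins. Apoc1 read -0.53, -0.69 and -1.15 in Arid3b-null trunks and -0.73, -0.75 and -0.35 in wild type, and was not called (-0.18, 95% interval -0.65 to 0.30, adjusted p = 0.551).

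Apom, the carrier of sphingosine-1-phosphate in plasma, read -3.37, -3.17 and -3.58 in Arid3b-null trunks and -2.44, -2.28 and -1.72 in wild type. Its difference was -1.23 ± 0.21 (SE, adjusted p = 0.00864). Apoa2, a structural protein of high-density lipoprotein, read 0.27, 0.03 and 0.61 in Arid3b-null trunks and 0.97, 1.20 and 1.59 in wild type. By this probe it differed by -0.95 ± 0.21 (SE, adjusted p = 0.0196), and by its dimmer probe by -1.96 ± 0.23 (SE, adjusted p = 0.0025 among all probes). The 2 probes had 1 direction but differed in size. The call by the brighter probe was lost without Arid3b-null replicate 1 or 2 or wild-type replicate 2 (adjusted p = 0.0551, 0.0592 and 0.0503).

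Apoa1, the main protein of high-density lipoprotein, read -4.05, -3.52 and -4.94 in Arid3b-null trunks and -4.05, -4.07 and -4.31 in wild type. The mutant pools lay on both sides of wild type and the difference was -0.03 (95% interval -0.84 to 0.78, adjusted p = 0.962). Without Arid3b-null replicate 3 it was 0.36, still not called. Apob, on which liver lipoproteins are built, read -3.89, -3.42 and -5.24 in Arid3b-null trunks and -3.86, -3.60 and -3.30 in wild type. Its difference was -0.60 (-1.67 to 0.48, adjusted p = 0.369), with -0.03, 0.18 and -1.94 on slides 1, 2 and 3. The low value was that of Arid3b-null replicate 3, on which Apob was not well above background. Mttp, which loads lipid onto the Apob protein, read -2.32, -1.89 and -2.21 in Arid3b-null trunks and -2.71, -2.58 and -2.33 in wild type. The groups did not overlap, but the difference of 0.40 ± 0.16 (SE) was not called (adjusted p = 0.11).

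Cubn and Amn encode cubilin and amnionless, which together form the endocytic receptor of the visceral endoderm and of the kidney tubule. Neither was called. Amn read -4.47, -4.04 and -4.54 in Arid3b-null trunks and -4.75, -4.76 and -4.84 in wild type, with no overlap and a difference of 0.43 (95% interval 0.07 to 0.80, adjusted p = 0.081). Cubn read -4.13, -3.37 and -4.59 in Arid3b-null trunks and -3.83, -3.84 and -3.61 in wild type, with overlap and a difference of -0.27 (-0.98 to 0.43, adjusted p = 0.535).

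Both transcription factors of the list were lower. Hnf4a, the nuclear receptor that activates many plasma protein genes in hepatocytes and visceral endoderm, read -3.41, -3.03 and -3.06 in Arid3b-null trunks and -2.07, -1.97 and -1.73 in wild type. Its difference was -1.24 ± 0.15 (SE, adjusted p = 0.00284), or 42.2% of the wild-type level. Prox1, which hepatoblasts need to leave the bud and which lymphatic and neural cells also express, read -5.40, -5.19 and -4.90 in Arid3b-null trunks and -4.59, -4.64 and -4.71 in wild type. It differed by -0.52 ± 0.15 (SE, adjusted p = 0.0437) and, with the replicate block, was not called (adjusted p = 0.0698). Prox1 was also not called without Arid3b-null replicate 1 or 2 or any wild-type array (adjusted p 0.0812 to 0.128), with median scaling (0.0707), with quantile normalization (0.0992), in the deposited value table (0.113), or with normexp and the median background of each array (0.75).

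The 4 genes with a probe that were not tested were not well above background on all 3 arrays of either group. Ahsg, for fetuin-A, was so on none of the Arid3b-null arrays and on 2 wild-type arrays. Kng1, for the kinin precursor kininogen, was on none of the Arid3b-null and on 1 of the wild-type arrays by its brighter probe. Apoa4, of chylomicrons and high-density lipoprotein, was on 1 Arid3b-null array and on no wild-type array. Apoh, which binds phospholipids, was on none of the 6 arrays. No fold is given for them.

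The SD between Arid3b-null arrays was larger than that between wild-type arrays in 25 of 30 genes (83.3%), as in 54.0% of all genes. The median SD was 0.39 in Arid3b-null and 0.17 in wild type, against 0.17 and 0.16 over all genes. Among the 24 genes well above background on all 6 arrays it was larger in 19 (79.2%), with median SDs of 0.30 in Arid3b-null and 0.15 in wild type. The lowest Arid3b-null array was replicate 1 for 16 genes and replicate 3 for 13, and the highest was replicate 2 for 20 (53.3%, 43.3% and 66.7% of the 30). Over all genes these shares were 21.2%, 44.9% and 38.1%. Of the 16 genes called lower, 11 had their lowest mutant value on replicate 1. In the lists described below, the mutant SD was larger in 87.5% of early neuron genes and 78.6% of visceral endoderm and yolk sac genes. It was larger in 47.8% of other secreted plasma proteins, and in 33.3% to 60% across the remaining lists. Replicate 2 was the highest mutant array for 6 of 8 early neuron genes and 11 of 14 visceral endoderm genes, but for 5 of 23 other secreted plasma proteins.

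**Figure D3:**
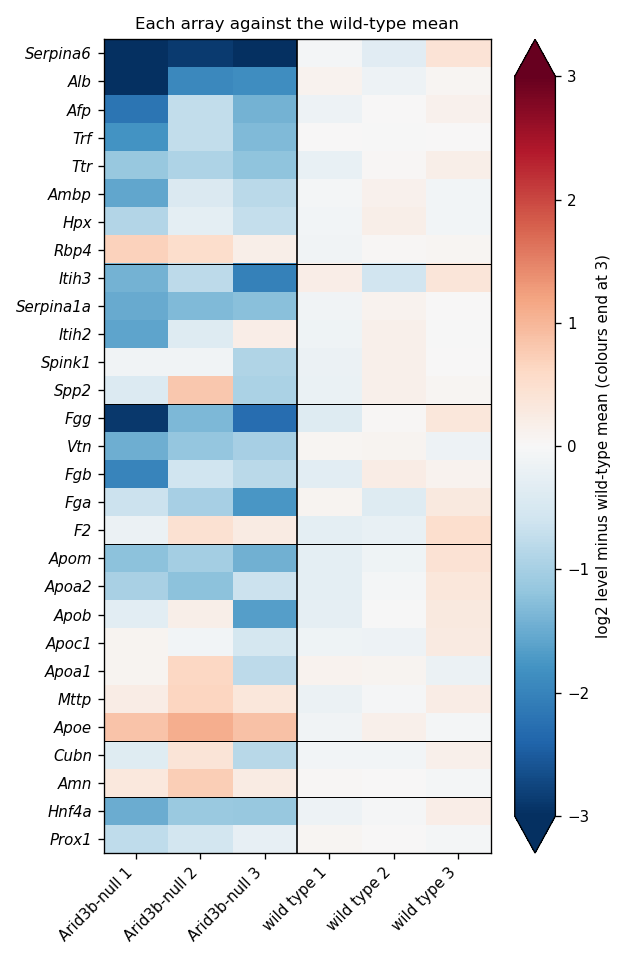
Level of 29 genes on each array minus the wild-type mean of that gene (log2, colours end at 3), with Arid3b-null arrays on the left and wild-type arrays on the right, and F10 left out. The rows from Serpina6 to Hpx are below 0 on each mutant array and deepest on replicate 1 for 6 of these 7, while Apoe is above 0 on all 3.

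The spread did not run the same way for each gene. Serpina6, Alb, Afp, Trf, Ambp, Hpx, Itih2, Fgg and Fgb were lowest on replicate 1, and Apob, Apoa1, Cubn, Spp2, Spink1, Itih3 and Fga on replicate 3. How much liver tissue each pool held was not measured.

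Lists of other genes of the liver, of neighbouring tissues and of the yolk sac were set beside these 30. The counts in each list stand beside 12.9% lower and 13.6% higher over all genes tested. Among 23 other secreted plasma proteins tested, 9 were lower and 2 higher, with a median of -0.43. Of the called genes, Plg and Hp were tested only through wild type, so they are bound to lean to a fall. A2m was tested only through Arid3b-null, so it is bound to lean to a rise. The alpha-1-antitrypsin copies Serpina1c, Serpina1d and Serpina1e differed by -1.32, -1.15 and -1.33 (adjusted p = 0.00133, 0.00196 and 0.00251), close to Serpina1a and with the same doubt about which copy is read. Plg, which encodes the clot-dissolving precursor plasminogen, read -5.97, -5.68 and -5.65 in Arid3b-null trunks and -4.47, -4.13 and -4.15 in wild type (-1.52, adjusted p = 0.00135). It was well above background on 2 of 3 Arid3b-null arrays, and with normexp and the median background of each array it differed by -0.32 and was not called (adjusted p = 0.109).

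Of 9 tested hepatocyte enzymes and other liver genes, 4 were lower and none was called higher, with a median of -0.48. Of the genes called lower, Fbp1 and Ttpa were tested only through the wild-type arrays, so they are bound to lean to a fall. Fbp1, an enzyme of gluconeogenesis, read -5.18, -6.43 and -6.13 in Arid3b-null trunks and -3.61, -3.94 and -3.77 in wild type (-2.14, adjusted p = 0.00503). Unlike Alb or Fgg, Fbp1 had its highest mutant value on replicate 1. Bhmt, an enzyme that remethylates homocysteine, differed by -1.66 (adjusted p = 0.0138) and Ttpa, which moves vitamin E, by -1.20 (adjusted p = 0.00615). Arg1, an enzyme of the urea cycle, differed by -0.48 (adjusted p = 0.0347) and was not called with the replicate block (adjusted p = 0.0607).

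Of 13 tested transcription factors of the hepatic bud and endoderm, 1 was lower, 2 were higher and 10 were not called. Hnf4a and Prox1, both lower, were counted with the plasma protein genes and not in this list. Over all genes, 12.9% were lower and 13.6% higher. The median of these factors was 0.23. Onecut2 differed by -1.07 (adjusted p = 0.00262), and Foxa3 and Gata6 by 0.73 and 0.48 (adjusted p = 0.0127 and 0.042). Onecut2 is also a factor of neurons, and Gata6 of heart and gut mesoderm and endoderm. Hhex and Foxa2, factors that hepatic and gut endoderm express, were well above background on all 6 arrays. How much of their signal came from endoderm was not measured. Hhex and Foxa2 were named after their values were seen and differed by 0.42 (adjusted p = 0.118) and -0.30 (0.237).

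Of 14 genes listed for visceral endoderm and yolk sac, 0 were called lower and 2 higher, with a median of 0.13. Over all genes, 12.9% were called lower and 13.6% higher. How much of the signal of these 14 genes came from other cells of the trunk was not measured. The endocytic receptor gene Lrp2 rose by 0.51 (adjusted p = 0.0393, and 0.0508 with the replicate block), and Gpc3, a glypican, by 0.53 (adjusted p = 0.0177). The summed level of this list (linear, relative to the 75th percentile) was 24.4, 24.3 and 22.8 in Arid3b-null and 18.2, 19.7 and 19.7 in wild type. Without the bright Gpc3 probe the sums ran from 10.4 to 12.1 in Arid3b-null, with up to 11.1 in wild type, and the groups overlapped. All 14 were well above background on all 6 arrays, and Npc1l1, the member left untested, on none. The part of yolk sac tissue in the differences above was not tested.

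**Figure D4:**
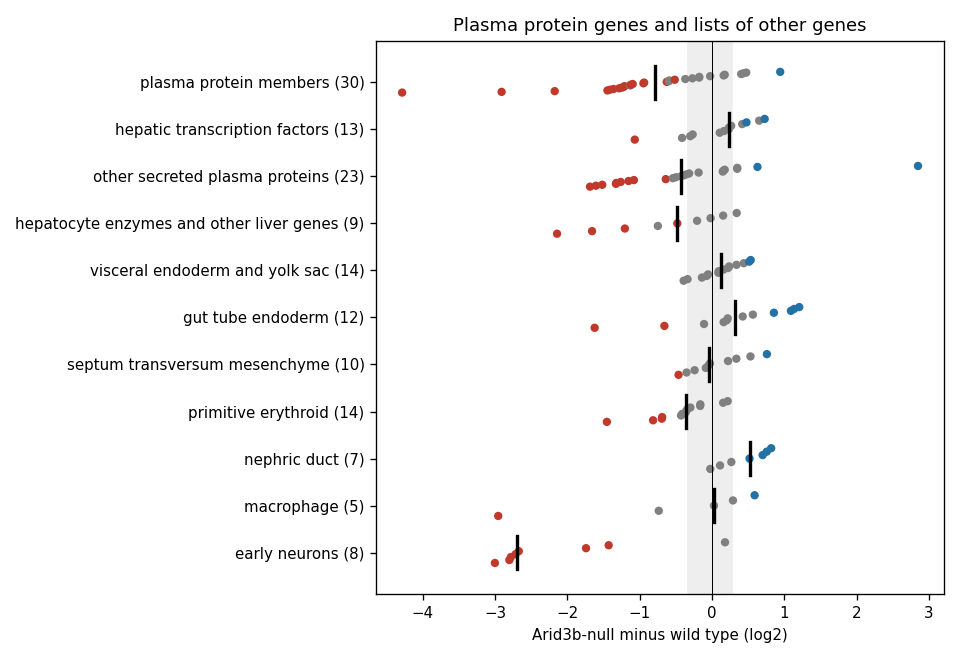
Difference between Arid3b-null and wild type (log2) of each tested gene in the 30 plasma protein genes and in 10 lists of other genes, with the number tested in brackets, a bar for the list median, red for genes called lower and blue for genes called higher. The medians run from -2.69 in early neuron genes to 0.52 in nephric duct genes, with the plasma protein genes at -0.78 and hepatic transcription factors at 0.23. Hnf4a and Prox1 are counted with the plasma protein genes.

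The list for gut tube endoderm, from which the liver bud arises, had 2 genes lower and 4 higher of 12, with a median of 0.32. How much of the signal of these genes came from other epithelia of the trunk was not measured. The keratin gene Krt8, the tight junction gene Cldn4 and the endoderm and endothelial factor Sox17 rose by 1.13, 1.09 and 1.21 (adjusted p = 0.00637, 0.0097 and 0.00136). Pdx1, the factor of the pancreatic buds beside the liver bud, was well above background on no Arid3b-null array and on all wild-type arrays. It was tested only through wild type, where it is bright, so it is bound to lean to a fall. By the processed signal it was at least 1.54-fold lower (adjusted p = 0.00258). With normexp and the median background of each array it differed by -0.08 and was not called (adjusted p = 0.737). Of 10 genes of the septum transversum mesenchyme 1 was lower and 1 higher (12.9% and 13.6% over all genes), with a median of -0.04. These were Lhx2 (-0.46, adjusted p = 0.046), a factor of the liver mesenchyme and limb bud, and the mesothelial gene Upk3b (0.76, adjusted p = 0.0444), and neither was called with the replicate block (0.0535 and 0.065).

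Of 14 primitive erythroid genes 4 were lower, none was called higher and 10 were not called, with a median of -0.36. Their summed level, most of it from the globin probes, was 602, 673 and 559 in Arid3b-null and 711, 711 and 922 in wild type. The globin genes Hbb-bh1, Hbb-y, Hba-x and Hba-a1 were themselves not called (adjusted p = 0.149, 0.186, 0.0749 and 0.0783). Klf1, Gata1, Tal1 and Slc4a1 were the 4 called lower, at -1.45, -0.82, -0.69 and -0.69 (adjusted p = 0.00168, 0.00418, 0.0135 and 0.0296), the first 3 being factors of red cell formation. With quantile normalization 8 of the erythroid genes were lower. In the nephric duct list 4 of 7 were higher, namely Ret, Osr1, Pax8 and Gata3, at 0.82, 0.52, 0.76 and 0.70 (adjusted p = 0.0038, 0.0105, 0.0138 and 0.0155), and none was called lower. The other 3, Pax2, Lhx1 and Emx2, were not called, at -0.02, 0.27 and 0.11 (adjusted p = 0.945, 0.514 and 0.751). How much of this list's signal came from other cells of the trunk was not measured.

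Among 8 early neuron genes 7 were lower and none was called higher, with a median of -2.69. Ina, Elavl3, Stmn2 and Tubb3, genes of young neurons, were 6.87-fold, 6.97-fold, 8.01-fold and 6.57-fold lower (adjusted p = 0.000184, 0.000391, 0.000464 and 0.000591). Of 5 macrophage genes tested 1 was lower, 1 was higher and 3 were not called, with a median of 0.03. Cx3cr1, a chemokine receptor, differed by -2.96 (adjusted p = 0.0039), with 1 of 3 Arid3b-null arrays well above background. Cx3cr1 was tested only through wild type, so it is bound to lean to a fall. Aif1 differed by 0.59 (adjusted p = 0.0486, and 0.0629 with the replicate block), and Lyz2 was well above background on no array. The part that these changes have in those of the plasma protein genes was not tested.

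Several calls in these lists rested on few arrays. Lrp2, Lhx2 and Aif1 were not called without any 1 of the 6 arrays. Arg1 kept its call only without Arid3b-null replicate 1, Upk3b and Gata6 only without Arid3b-null replicate 1 or wild-type replicate 2, and Slc4a1 only without Arid3b-null replicate 2 or wild-type replicate 1. Gpc3 was not called without Arid3b-null replicate 2 or wild-type replicate 1 or 2, Gata3 not without Arid3b-null replicate 2 or wild-type replicate 1, and Pax8 not without wild-type replicate 1. The adjusted p in these fits was 0.0507 to 0.14. With normexp and the median background of each array, Ttpa (-0.29, adjusted p = 0.152), Pdx1 (-0.08, 0.737), Foxa3 (0.35, 0.104), Gata6 (0.42, 0.0561) and Aif1 (0.26, 0.101) were not called. There Fbp1, Bhmt and Cx3cr1 kept their calls at -0.62, -0.79 and -0.55 (adjusted p = 0.00416, 0.00974 and 0.00775). Fbp1 and Ttpa were well above background on 2 of 3 Arid3b-null arrays.

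Of the 17 called genes, 8 kept the call in every setting tried but normexp with local background, under which none of the 30 was called. They were Ttr, Serpina6, Serpina1a, Fgg, Vtn, Apom and Hnf4a, all lower, and Apoe, higher. With normexp and the median background of each array, the sizes of 5 genes shrank by over 1.5 times, with differences of -1.28 for Serpina6, -0.73 for Alb, -1.08 for Fgg, -0.10 for Itih3 and -0.16 for Fga, the last 2 no longer called.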

How the data were processed

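RNA of 6 trunk pools was measured with Agilent arrays of 1 colour. Per the file headers, Feature Extraction 10.7.3.1 (protocol GE1_107_Sep09, design 026655, build mm9) made the deposited intensity values on a linear scale, with background subtracted. The authors' deposited value table holds log2 values of 24181 probes, with medians of 6.77 on each array. It correlated at 0.999 to 1.00 with the log2 processed signal. Its scale is thus settled, genes are not centred, and the sources used here do not name the scaling method.

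Here, log2 processed signal minus the array's 75th percentile was taken over 43020 non-control spots, with 100 to 169 outlier spots per array set to missing. Probes well above background on all 3 arrays of a group were tested, 24420 in all. A gene is its brightest tested probe. Accessions gave 26424 of 39429 probes (67.0%) a symbol through RefSeq (GRCm38.p6), used for names, neighbours and promoters only. Genes were tested two-sided with limma 3.58.1 in R 4.3.3 and Benjamini-Hochberg adjustment over 19792 genes, and simulated data were used to test the fit. For a probe that no array of a group measured above background, the fold is a lower bound against that group's lowest measurable signal. This bound holds for the processed signal only, not for other background methods. The number of arrays limits the precision.

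The members and lists were chosen with earlier results of these data known. Named were all members, Arid3b, and per list up to 4 called genes with the smallest adjusted p, with exceptions stated. A planned search for a further promoter motif is not reported here. Same-numbered arrays shared a slide, and their deviations from the group means correlated at 0.163, 0.387 and 0.278, so the numbers pair the arrays. The block fit is given where it changes a call. Labels do not say whether pools came from separate litters, so p-values measure the spread between these pools.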

Additional observations from a re-analysis of the deposited data

How the results depend on the processing

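The lower and higher calls among the plasma protein genes (16 and 1) and their median (-0.78) came out as 13 and 1 with median scaling and 13 and 2 with quantile normalization, which both lost Ambp, Hpx and Prox1, and 14 and 2 with the deposited value table, which lost Hpx and Prox1. Where 2 were higher, the other beside Apoe was Rbp4. They were 16 and 1 where probes of a gene were averaged, and 14 and 1 with the replicate block, which lost Itih3, Fga and Prox1, gained Fgb, and among list genes lost Arg1, Lrp2, Lhx2, Upk3b and Aif1. It changed no other call named here. Normexp with local background gave 0 and 0 calls here, and 0 lower and 2 higher over all genes, where the median of all genes moved to -0.22. Normexp with each array's median background gave 13 and 2 calls and a median of -0.27, lost Hpx, Itih3, Fga and Prox1 and gained Fgb. Without the filter on dim probes 7 of 34 were lower (lost were Alb, Afp, Trf, Ambp, Hpx, Itih3, Fga, Apoa2 and Prox1), with 998 lower and 1288 higher of 32530 genes. The cause of these shifts was not tested. Leaving out each array in turn gave 9 to 13 lower and 1 to 2 higher calls, medians of -0.90 to -0.67, and 1204 to 2037 lower and 1661 to 2047 higher calls over all genes (2560 and 2694 with all arrays). Named library by library, lower calls were 12, 13 and 11 without Arid3b-null replicate 1, 2 and 3, and 9, 10 and 9 without wild-type replicate 1, 2 and 3. The added choice of the dimmer F10 probe, made after seeing the data, gave 17 and 1.

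Directions turned under normexp with local background for F2 (-0.71), Mttp (-0.18), Amn (-0.73), Foxa3 (-0.54), Cldn4 (-0.019), Pax8 (-0.19) and Aif1 (-0.70). Under normexp with the array median, Spp2 was 0.050 and Apoa1 0.059. F10 was -0.17 as a mean of probes and -0.51 by its dimmer probe. Apoa1 was 0.0027 in the deposited table. Leaving out arrays in turn gave -0.35 to 0.36 for Apoa1, -0.68 to 0.20 for Spp2, -0.31 to 0.0051 for Apoc1 and -0.60 to 0.0080 for Cubn, each highest when Arid3b-null replicate 3 was left out. Genes near background, such as Alb and Serpina6 in Arid3b-null, had sizes that shifted with the background method.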

Other observations

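A2m, which encodes alpha-2-macroglobulin, a broad plasma protease inhibitor, was chosen here after its values were seen. It read -5.06, -4.77 and -5.05 in Arid3b-null trunks and -8.49, -8.46 and -6.48 in wild type. It was well above background on all 3 Arid3b-null arrays and on no wild-type array. A2m thus entered the test only through the group in which it is bright, and is bound to lean to a rise. It was at least 2.54-fold higher by the processed signal (limma adjusted p = 0.0107), against the direction of most plasma protein genes. These values describe A2m only, and its size under other background methods is not given.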
